A study of Homo sapiens with 18 samples.

Results

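The calpain genes and calpastatin were followed in PANC-1 cells, an established line from a human pancreatic ductal carcinoma, with and without depletion of NAT10, the enzyme that acetylates cytidines of RNA to N4-acetylcytidine (ac4C). The 9 genes, taken by symbol from the 58302 genes of the expression table, were CAPN1, CAPN2, CAPN5, CAPN7, CAPN8, CAPN10, CAPN15, CAPNS1 and CAST. All 9 were found in the table. CAPN8 drew attention to the family because it stood among the leading rises of these data, so its own change is described without a test. The control cells (shCtrl) had received a control shRNA vector, which the labels call empty and the methods of the study list as a non-targeting shRNA, and the depleted cells (shNAT10) a vector with an shRNA against NAT10, both carried by lentivirus and kept stably. No drug or other treatment separated the groups, and the shNAT10 group rests on 1 shRNA vector in 1 cell line. RNA-seq had 3 libraries per group, and acRIP-seq, which sequences RNA fragments pulled down with an ac4C antibody beside the input, had 3 IP and 3 input libraries per group, deposited as 1 peak list per group.

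Calpains are intracellular cysteine proteases that are switched on by calcium and cut their substrates at a few places rather than degrading them. The classical enzymes are heterodimers of a large catalytic subunit, CAPN1 (µ-calpain) or CAPN2 (m-calpain), with the small regulatory subunit CAPNS1, and calpastatin, encoded by CAST, is their dedicated inhibitor. CAPN8 has the same domain plan as CAPN1 and CAPN2 and is known from the mucosa of the stomach. CAPN5, CAPN7, CAPN10 and CAPN15 share the protease core but lack the calcium-binding penta-EF-hand domain at its end. In moving cells calpains cut talin, focal adhesion kinase and other proteins of focal adhesions, which lets adhesions turn over.

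Expression is given as FPKM, the fragments scaled to the length of the transcript and the reads of the library, so that levels can be compared between genes. The libraries held 15831720 to 23521762 reads on genes. The test was limma on log2(FPKM + 0.1), run for the 12982 genes that reached an FPKM of 1 in 3 or more libraries, and a gene with an adjusted p-value below 0.05 is named as called. All 9 genes of the family passed this filter, CAPN8 only through its shNAT10 libraries. The labels do not say whether the 3 libraries of a group came from separate cultures, so the p-values measure the spread between these libraries, which may be technical. The shCtrl library 2 stood apart from its group, with a chi-square per gene of 54.1 and 32.4 against the other shCtrl libraries, beside 7.75 between those and 2.28 to 3.68 among the shNAT10 libraries. NAT10 itself stood at 31.6, 27.7 and 28.6 FPKM in the shCtrl libraries and at 7.92, 8.43 and 7.90 FPKM in the shNAT10 libraries, in the direction of the labels. It fell by 1.84 on the log2 scale (SE 0.08, limma adjusted p = 3.85e-05; exact permutation p = 0.1, the smallest that 3 against 3 libraries allow).

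The cells carried the keratins of a ductal carcinoma line, and markers of acinar, endocrine, leukocyte and endothelial cells were near 0. The markers of ductal and epithelial cells summed to between 2831 and 3789 FPKM in shCtrl cells and between 1540 and 1721 in shNAT10 cells. Of their 7 genes 4 were called lower (KRT7, KRT8, KRT18 and KRT19) and 2 higher (EPCAM and SOX9), and CDH1 was not called, where 21.2% of all tested genes were called lower and 20.8% higher. KRT8, a simple-epithelium keratin, fell by 1.18 on the log2 scale (limma adjusted p = 0.000361), whereas EPCAM, an epithelial adhesion molecule, rose by 2.20 (limma adjusted p = 6.88e-05). The call of SOX9, a ductal transcription factor (log2 fold change 0.19, limma adjusted p = 0.0498), was lost under 10 of 15 alternatives, among them without each library in turn other than shCtrl library 2. No acinar, endocrine, leukocyte or endothelial marker reached the filter, the highest of them standing at 0.320 FPKM in a library. The 5 fibroblast markers summed to between 29.5 and 34.6 FPKM in shCtrl libraries and between 19.3 and 22.8 FPKM in shNAT10 libraries, nearly all of it from COL1A1, a collagen chain, which fell from 31.1 to 19.2 FPKM on average (limma adjusted p = 0.00182). COL3A1, another collagen chain, passed the filter only through its shNAT10 libraries, with means of 0.776 and 1.96 FPKM, and COL1A2, DCN and LUM lay at or near 0. The part of these marker shifts in the calpain values was not tested, and in bulk RNA fewer cells with a transcript cannot be told apart from less transcript per cell.

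The sequences below come from the ac4C side of the data and show the acRIP peaks that lay wholly in the coding sequence of a family member as 1 run of its longest coding transcript. They were read from the GRCh38 genome with the GENCODE release 29 annotation, along the RNA strand and written as DNA. Capitals mark each match to CNNCNNCNNCNN, 4 repeats of a cytidine followed by any 2 bases, searched on the RNA strand only with overlapping matches joined. The first is from the shCtrl list and covers the start of the CAPN1 coding sequence on chromosome 11 (chr11:65182703-65182942, + strand, codons 1 to 81). It holds 0 matches.

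CAPN1 coding start: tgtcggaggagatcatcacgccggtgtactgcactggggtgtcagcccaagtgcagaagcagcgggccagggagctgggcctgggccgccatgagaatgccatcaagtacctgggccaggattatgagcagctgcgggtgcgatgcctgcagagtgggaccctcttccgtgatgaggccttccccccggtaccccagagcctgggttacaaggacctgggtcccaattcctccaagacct

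The second is from the shNAT10 list and joins 2 exons of CAPN10 on chromosome 2 (between 240594573 and 240595126, + strand, codons 287 to 367), with 2 matches. The third is from the shCtrl list and joins 3 exons of CAPN15 on chromosome 16 (between 551421 and 552130, + strand, codons 729 to 809), with 3 matches.

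CAPN10 codons 287 to 367: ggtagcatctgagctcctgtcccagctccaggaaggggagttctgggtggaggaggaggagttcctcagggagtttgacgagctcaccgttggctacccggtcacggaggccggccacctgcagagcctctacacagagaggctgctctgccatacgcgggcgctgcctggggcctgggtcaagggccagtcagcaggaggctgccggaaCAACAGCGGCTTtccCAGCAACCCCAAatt

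CAPN15 codons 729 to 809: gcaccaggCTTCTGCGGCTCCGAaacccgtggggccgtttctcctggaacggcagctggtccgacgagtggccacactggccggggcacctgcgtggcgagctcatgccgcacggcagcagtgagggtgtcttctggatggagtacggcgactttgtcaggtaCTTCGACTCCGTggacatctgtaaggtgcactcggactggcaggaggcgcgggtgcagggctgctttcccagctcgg

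All peaks that matched these in length to within 1 base and formed 1 run of an annotated transcript were searched, in any part of any transcript type. Of these, 50.2% in the shCtrl list and 51.5% in the shNAT10 list held the motif, so a match in a peak of this length is common. A match is only a run of letters, and the absence of one in the CAPN1 peak concerns this window alone.

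The classical calpain system dominated the family in these cells. In shCtrl cells CAPNS1 had the highest level at 260.3 ± 39.6 FPKM (SD, n = 3), followed by CAST at 85.2 ± 5.72, CAPN2 at 84.7 ± 1.64 and CAPN1 at 72.8 ± 8.999 FPKM. CAPN7 followed at 13.3 ± 1.79 FPKM, CAPN5 at 9.62 ± 0.262, CAPN15 at 9.48 ± 0.171 and CAPN10 at 5.06 ± 0.594 FPKM. CAPN8 closed the order at 0.315 ± 0.0584 FPKM. Among neighbours in this order, the libraries of CAST overlapped those of CAPN2 and the libraries of CAPN5 overlapped those of CAPN15, and the other neighbours did not overlap. In shNAT10 cells no neighbours overlapped, and CAPN15 stood above CAPN5. Of the FPKM of the 7 large subunits among the members, CAPN1 and CAPN2 together made up 80.6 ± 1.25% in shCtrl cells and 79.1 ± 0.512% in shNAT10 cells (SD, n = 3 each). This sum leaves out calpains outside the member list. Of these CAPN12 had means of 15.55 FPKM in shCtrl and 10.15 FPKM in shNAT10 cells, and CAPN11 of 2.09 and 1.43 FPKM. FPKM values were scaled by the longest transcript of any type, which for CAPN2 and CAPN10 is not a coding one, and by the longest coding transcript their shCtrl means would be 97.9 and 8.44 FPKM.

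Depletion of NAT10 left most of the family uncalled. Apart from CAPN8, which the contrast itself had chosen, 0 of 8 members were called higher and 1, CAPN5, was called lower, beside 20.8% and 21.2% of all tested genes. The median log2 fold change of these 8 genes was -0.03, and that of all tested genes was -0.01. Values scaled as TPM moved the median of all genes to 0.10 and the share of called genes that were higher from 49.5% to 61.8%, so small differences below are to be read against that shift.

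Neither large subunit of the ubiquitous calpains was called. CAPN1 (chr11:65180566-65212006, + strand) stood at 66.4, 83.1 and 68.9 FPKM in shCtrl cells and at 72.0, 71.5 and 64.3 FPKM in the depleted cells. The groups overlapped, and the log2 fold change of -0.07 (SE 0.10, limma adjusted p = 0.621) turned to 0.03 without shCtrl library 2 and to 0.04 with values scaled as TPM. CAPN2 (chr1:223701593-223776018, + strand) stood at 86.5, 83.3 and 84.2 FPKM in shCtrl cells and at 81.6, 80.9 and 81.8 FPKM in the depleted cells. Each shNAT10 library lay below each shCtrl library, but by a small margin that did not pass the test (log2 fold change -0.06, SE 0.06, limma adjusted p = 0.452) and that turned to 0.05 with values scaled as TPM.

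CAPNS1, the small subunit that stabilises both large subunits, was lower in every shNAT10 library without passing the test. Its levels were 229.1, 304.8 and 247.1 FPKM in shCtrl cells and 218.8, 211.6 and 209.4 FPKM in the depleted cells (chr19:36139575-36150353, + strand). The groups did not overlap, and the shCtrl libraries spread far more widely than the shNAT10 libraries, with library 2 the highest. The log2 fold change was -0.28 (SE 0.11, limma adjusted p = 0.0771). It passed the threshold without shCtrl library 1 (-0.36, limma adjusted p = 0.0248), without shCtrl library 2 (-0.16, limma adjusted p = 0.0302) and under quantile normalization (-0.15, limma adjusted p = 0.0261), while over all alternatives the adjusted p reached up to 0.193.

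Calpastatin was the member with the closest group means among the abundant genes. CAST (chr5:96525267-96779595, + strand) stood at 89.7, 78.7 and 87.1 FPKM in shCtrl cells and at 85.8, 83.8 and 86.0 FPKM in the depleted cells. The groups overlapped, and the difference of 0.002 on the log2 scale (SE 0.07) did not pass the test (limma adjusted p = 0.979) and changed sign among the alternatives, between -0.05 and 0.11.

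The balance of inhibitor and small subunit against the classical enzymes was computed per library as a description. The ratio of CAST to the sum of CAPN1 and CAPN2 was 0.543 ± 0.0610 in shCtrl cells (0.586, 0.473 and 0.569) and 0.566 ± 0.0202 in shNAT10 cells (0.559, 0.550 and 0.588; SD, n = 3 each). These ratios overlapped between the groups. The ratio of CAPNS1 to the same sum was 1.65 ± 0.169 in shCtrl cells (1.499, 1.83 and 1.61) and 1.42 ± 0.0233 in shNAT10 cells (1.42, 1.39 and 1.43; SD, n = 3 each). Every shNAT10 library lay below every shCtrl library in this ratio, and shCtrl library 2 was the farthest away.

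**Figure D1:**
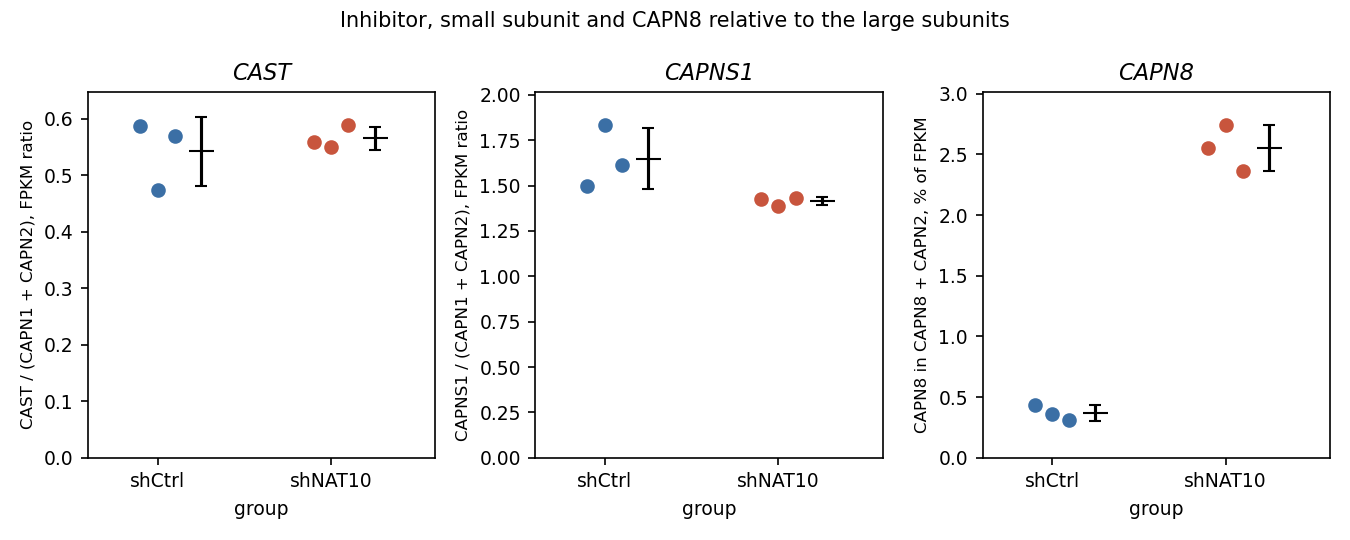
Each panel plots a ratio of FPKM values per library, with mean and SD in black, for 3 shCtrl and 3 shNAT10 libraries: CAST over CAPN1 plus CAPN2, CAPNS1 over the same sum, and CAPN8 as a percent of CAPN8 plus CAPN2. The CAST ratios overlap, the CAPNS1 ratios of the shNAT10 cells lie lower at about 1.42, and the CAPN8 percent moves from 0.370 to 2.55.

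CAPN8, the stomach-type calpain, had very little mRNA in shCtrl cells and came up to a low level in shNAT10 cells. It stood at 0.378, 0.305 and 0.262 FPKM in the shCtrl libraries and at 2.14, 2.28 and 1.98 FPKM in the shNAT10 libraries. All shNAT10 libraries lay far above all shCtrl libraries. These values rest on 17, 16 and 16 reads in shCtrl cells and 88, 115 and 91 reads in shNAT10 cells, recovered from the FPKM values. The ratio of the means was 6.78, and the log2 fold change on the log2(FPKM + 0.1) scale was 2.44 (SE 0.23), which understates the change of such a low gene. A pseudocount of 1 brought it down to 1.25 and voom on the recovered reads gave 2.76. Only 12 of the 12982 tested genes, CAPN8 included, had a log2 fold change at or above that of CAPN8, and 2.91% of them rose by more than 1 on the log2 scale with an adjusted p-value under 0.05. Since CAPN8 was chosen from this contrast, its rank is a description of the choice.

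Even after its rise CAPN8 remained a minor member. CAPN2 had 275 ± 46.2 times the FPKM of CAPN8 in shCtrl cells and 38.3 ± 2.89 times in shNAT10 cells (SD, n = 3 each). CAPN8 made up 0.370 ± 0.0624% of the sum of CAPN8 and CAPN2 in shCtrl cells and 2.55 ± 0.188% in shNAT10 cells (SD, n = 3 each).

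CAPN8 and CAPN2 are neighbours on chromosome 1 and point away from each other. CAPN8 lies on the minus strand (chr1:223538007-223665734), and 35858 bases with 0 protein-coding genes separate it from CAPN2 on the plus strand. The protein-coding gene beyond CAPN2 is TP53BP2, which encodes a partner of p53. It lies on the minus strand, and its 3′ end is separated from CAPN2 by 3880 bases. TP53BP2 stood at 16.6 ± 2.09 FPKM with control shRNA and 17.4 ± 0.738 FPKM after depletion (SD, n = 3 each; log2 fold change 0.08, SE 0.10, limma adjusted p = 0.556). CCDC185, the protein-coding gene beyond CAPN8 at a distance of 142536 bases, was listed at 0 FPKM in all 6 libraries. The large value of CAPN8 thus had no counterpart of like size in the flanking coding genes.

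The sequence of CAPN8 was compared with those of its relatives. The longest exact run that the longest coding transcript of CAPN8 shared with those of the other genes was 20 bases for CAPN2, 17 for CAPN1 and 16 for CAPN9. The other exons of CAPN8 were not compared, and reads shared between these genes were not tested. No exon base of CAPN8 is shared with another gene of the annotation. The annotated exons of CAPN8 hold 5192 bases over all its transcripts, and where in them its reads lay was not tested. The longest coding transcript that the annotation gives for CAPN8 has 2596 bases, and the FPKM of CAPN8 were scaled by this length. Its coding sequence has 1143 bases, beside 2142 bases in the CAPN1 model and 2100 bases in the CAPN2 model. These transcripts were chosen by total length, so other CAPN8 transcripts may have a longer coding sequence, and the coding lengths of the genes cannot be compared from them.

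Genes of the gastric mucosa, where CAPN8 is known from, lay mostly below the filter on expression. Of 14 genes of this list 3 passed it (TFF3, MUC1 and AGR2), and 0 were called higher, beside 20.8% of all tested genes. TFF3, a secreted trefoil peptide, stood at 1.14, 1.25 and 1.99 FPKM in shCtrl libraries and at 0.570, 0.510 and 0.510 FPKM in shNAT10 libraries. It passed the filter only through the group where it is high, so its lower call, the 1 lower call of the list beside 21.2% of all tested genes, is no support for a fall of the list. MUC1, a membrane mucin, had a log2 fold change of 0.17 (limma adjusted p = 0.197) and passed with values scaled as TPM (0.28, limma adjusted p = 0.0424). AGR2, a disulfide isomerase of mucus-secreting cells, had a log2 fold change of -0.19 (limma adjusted p = 0.112), which passed without shCtrl library 1 (-0.25, limma adjusted p = 0.0453) and shrank to -0.11 without shCtrl library 2 (limma adjusted p = 0.0794). The 3 tested genes with the profile most like that of CAPN8 over the 6 libraries were BICD2, OLMALINC and AREG. Their root mean square differences from the centred profile of CAPN8 were 0.093, 0.149 and 0.153 on the log2 scale. Since CAPN8 was chosen for its rise, the profiles nearest to it are those of genes with a rise of like size on this scale. Shared regulation was not tested. BICD2, an adaptor of the motor dynein, went from 2.18 to 11.9 FPKM, and AREG, a ligand of the epidermal growth factor receptor, from 1.31 to 8.05 FPKM. OLMALINC, a long non-coding RNA, went from 2.85 to 15.5 FPKM.

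Among the calpains without a penta-EF-hand domain, CAPN5 was the 1 that passed the test. CAPN5, a membrane-associated calpain known from an inherited eye disease (chr11:77066941-77126155, + strand), stood at 9.91, 9.56 and 9.40 FPKM in shCtrl cells. In shNAT10 cells it stood at 5.89, 6.53 and 5.89 FPKM, and every shNAT10 library lay well below every shCtrl library. It fell by 0.65 on the log2 scale (SE 0.08, limma adjusted p = 0.000862), to 0.634 of its control mean, and this call held in all 15 alternatives, with log2 fold changes between -0.70 and -0.55. It rested on 756, 851 and 972 reads in shCtrl cells and 410, 558 and 458 reads in shNAT10 cells.

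CAPN7 and CAPN15 had higher values in every shNAT10 library but did not pass the test. CAPN7, which binds proteins of the ESCRT membrane-remodelling machinery (chr3:15206152-15252918, + strand), stood at 14.1, 11.2 and 14.5 FPKM in shCtrl cells and 16.01, 14.6 and 16.5 FPKM in the depleted cells. The groups were separated only narrowly, and the log2 fold change was 0.24 (SE 0.11, limma adjusted p = 0.125), which shrank to 0.13 without shCtrl library 2 (limma adjusted p = 0.158). CAPN15, a calpain with zinc fingers (chr16:527717-554636, + strand), stood at 9.37, 9.68 and 9.39 FPKM in shCtrl cells and 10.7, 11.2 and 10.6 FPKM in the depleted cells. Its log2 fold change of 0.19 (SE 0.07, limma adjusted p = 0.0516) passed the threshold without shCtrl library 2 (0.21, limma adjusted p = 0.0226), under quantile normalization (0.20, limma adjusted p = 0.0429) and with values scaled as TPM (0.30, limma adjusted p = 0.0144), while over all alternatives the adjusted p reached up to 0.185. CAPN10, known from studies of inherited risk of type 2 diabetes (chr2:240586716-240617705, + strand), stood at 5.16, 5.61 and 4.43 FPKM in shCtrl cells and 4.80, 5.36 and 4.97 FPKM in the depleted cells. The groups overlapped, and the log2 fold change was -0.001 (SE 0.11, limma adjusted p = 0.997), with a sign that turned among the alternatives.

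Of the 8 members other than CAPN8, 2 (CAPN7 and CAPN15) were higher in all shNAT10 libraries than in any shCtrl library and 3 (CAPN2, CAPN5 and CAPNS1) were lower in all. Of all tested genes 27.9% were higher and 28.6% lower in this sense.

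**Figure D2:**
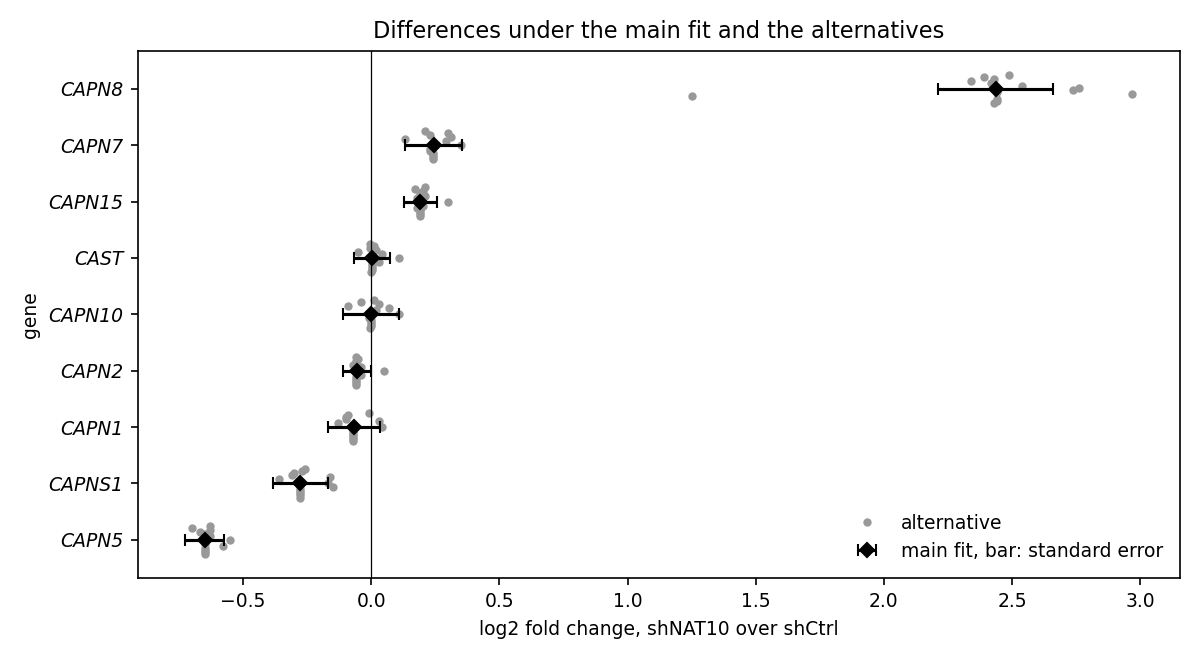
Black diamonds are the log2 fold changes of shNAT10 over shCtrl cells with their standard errors (n = 3 libraries per group), and grey points are the values under the alternatives. CAPN5 stays between -0.70 and -0.55, CAPN8 stays above 1 but varies with the pseudocount, and CAPN1, CAPN2, CAPN10 and CAST have points on both sides of 0.

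The remaining calpain genes mostly had little or no mRNA. Of 9 calpain genes outside the member list 2 passed the filter on expression, and both were called lower, beside 21.2% of all tested genes. CAPN12, a calpain of the skin and hair follicle, stood at 14.1, 16.5 and 16.04 FPKM in shCtrl cells and 9.29, 11.03 and 10.1 FPKM in the depleted cells. It fell by 0.61 on the log2 scale (SE 0.10, limma adjusted p = 0.00289) with no overlap of the groups. Of its exon bases 18.3% overlap genes of the opposite strand, among them ACTN4, which had a log2 fold change of -0.35 (limma adjusted p = 0.00526). The call of ACTN4 was lost under quantile normalization (-0.15, limma adjusted p = 0.125) and with no filter on expression (limma adjusted p = 0.0652). By the methods of the study, the RNA-seq libraries were made with a stranded kit. The strand setting of the counting is not given in the sources used here, so whether reads of CAPN12 and ACTN4 in the overlap were kept apart was not tested. CAPN11, known from the testis, stood at 2.07, 2.16 and 2.04 FPKM in shCtrl cells and 1.32, 1.40 and 1.58 FPKM in the depleted cells. It fell by 0.52 (SE 0.14, limma adjusted p = 0.0201) without overlap, but its adjusted p rose to 0.0616 without shCtrl library 3, 0.0679 without shNAT10 library 1, 0.0654 without shNAT10 library 2 and 0.0518 with values scaled as TPM in limma. CAPNS2, a small subunit related to CAPNS1, lay below the filter at 0.292 and 0.176 FPKM on average in shCtrl and shNAT10 cells. CAPN3, CAPN6, CAPN9, CAPN13, CAPN14 and ADGB stayed below a mean of 0.1 FPKM in both groups.

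The penta-EF-hand proteins that share the calcium-binding fold of the classical calpains, SRI, PDCD6, PEF1 and GCA, were tested beside the family. All 4 passed the filter, 0 were called and their median log2 fold change was -0.07. Known substrates of calpains were called in both directions, in shares near those of all tested genes. Of 30 substrates tested 7 were called higher, 7 lower and 16 not, with a median log2 fold change of 0.04, beside 20.8% higher and 21.2% lower among all tested genes. The largest rises were those of CTTN, MYH9 and PLEC. CTTN, the actin-binding protein cortactin, rose from 67.5 ± 2.30 to 165.5 ± 3.98 FPKM (SD, n = 3 each; log2 fold change 1.29, SE 0.06, limma adjusted p = 5.03e-05). MYH9, the heavy chain of non-muscle myosin IIA, rose by 0.68 on the log2 scale (limma adjusted p = 0.000361) and PLEC, the cytolinker plectin, by 0.56 (limma adjusted p = 0.00428).

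The largest falls were those of TLN2, PTPN1 and VCL. TLN2, a talin that links integrins to actin, went from 3.14 to 1.52 FPKM on average and fell by 0.98 on the log2 scale (SE 0.16, limma adjusted p = 0.0031). TLN1, the more abundant talin, named here after its values were seen, went the other way, from 48.9 ± 5.96 to 67.3 ± 2.52 FPKM (SD, n = 3 each; log2 fold change 0.47, SE 0.10, limma adjusted p = 0.0086). PTPN1, the tyrosine phosphatase PTP1B, fell by 0.66 (limma adjusted p = 0.000535). VCL, the focal adhesion protein vinculin, fell by 0.61 (limma adjusted p = 0.0041). The calls of CTTN, MYH9, PLEC, TLN2, PTPN1 and VCL held in all 15 alternatives, other than that a minimum FPKM of 5 removed TLN2 from the test. The values are mRNA levels and carry no information on cleavage of the proteins.

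The acRIP lists placed ac4C peaks on some calpain transcripts in each group. The shCtrl list held 16892 peaks and the shNAT10 list 15813. In the shCtrl list 3 of the 9 members had a peak (CAPN1, CAPN15 and CAST, with 6 peaks in all), beside 49.6% of all tested genes. In the shNAT10 list 5 of 9 had 1 (CAPN1, CAPN2, CAPN10, CAPN15 and CAST, with 7 peaks in all), beside 47.7% of all tested genes. CAPN5, CAPN7, CAPN8 and CAPNS1 had a peak in neither list, as did 36.5% of all tested genes. With 1 list per group there is no replicate check, and the depth behind each peak is unknown, so a peak listed in 1 group only is not shown to differ between the groups.

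CAPN1 carried the most peaks, 4 in the shCtrl list and 2 in the shNAT10 list. The CAPN1 peak with the highest fold enrichment of each list lay near the 5′ end of the gene. It lay in exons of coding transcripts other than the longest, in bases that no transcript uses as coding sequence. By the p-value of the peak caller it was the least significant CAPN1 peak of its list (1.3e-68 in the shCtrl list and 7.9e-44 in the shNAT10 list). In the shCtrl list it spanned chr11:65181878-65182058 where IP exceeded input 130-fold (the fold enrichment), and in the shNAT10 list it spanned between 65181791 and 65182178 with a fold enrichment of 205, where it also overlaps the annotated gene AP003068.2. All 181 bases of the shCtrl peak lay inside the shNAT10 peak, and 66.1% and 73.2% of the peaks of the respective list had a fold enrichment as low or lower. The peak over the CAPN1 coding start printed above had a fold enrichment of 17 and was in the shCtrl list only.

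A second pair of CAPN1 peaks met near the 3′ end of the gene. The shCtrl peak (between 65210386 and 65210987) had a fold enrichment of 7.51 and the shNAT10 peak (between 65209908 and 65210416) of 17. No coding transcript held either peak whole as 1 run, but CAPN1-214 (shCtrl peak) and CAPN1-220 (shNAT10 peak), which retain an intron, did. Each peak is coding in part, with 126 bases of the shCtrl peak and 170 bases of the shNAT10 peak coding in a transcript. Which transcripts gave the fragments was not tested. The peaks shared 31 bases, codons 665 to 675 of the longest transcript (chr11:65210386-65210416, + strand). These are printed here because they are the coding bases that both lists mark in this gene.

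CAPN1 shared bases: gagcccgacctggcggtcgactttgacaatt

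The remaining CAPN1 peak of the shCtrl list (between 65186211 and 65187386, 2 blocks) had a fold enrichment of 26.9. Of its 300 exonic bases 212 are coding in a transcript. No coding transcript held it whole as 1 run, but CAPN1-213, which retains an intron, did. It was not met by a shNAT10 peak. Thus 2 of the 6 member peaks of the shCtrl list were shared with the shNAT10 list, both in CAPN1, beside 25.6% of all shCtrl peaks.

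CAPN15 and CAST had peaks in both lists at different places. The CAPN15 peak of the shCtrl list, printed above, had a fold enrichment of 109 and also overlaps the annotated gene Z97986.1. The CAPN15 peak of the shNAT10 list (chr16:537517-537697) had a fold enrichment of 139 and lay in exons of the non-coding transcript CAPN15-205 and another like it. The CAST peak of the shCtrl list covered 541 bases in 5 blocks (between 96737884 and 96741757 on chromosome 5) with a fold enrichment of 7.94. Its span also overlaps the annotated gene AC020900.1. The CAST peak of the shNAT10 list covered 151 bases (between 96767926 and 96769024) with a fold enrichment of 19.8, and its span also overlaps the annotated gene ERAP1.

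CAPN10 and CAPN2 had peaks in the shNAT10 list only. The CAPN10 peak printed above had a fold enrichment of 193, above 72.5% of the list or equal to it. The 2 CAPN2 peaks lay in the 3′ UTR (chr1:223775031-223775181 and chr1:223775540-223775719) with fold enrichments of 2.22 and 2.59, among the lowest of the list at its 2.14% and 3.34% positions. Of the 13 member peaks 7 had their midpoint in the coding sequence of the longest coding transcript, 2 in its 3′ UTR and 4 outside its exons. A midpoint in the coding sequence does not mean that the whole peak was coding. CAPN5, the called member, and CAPN8, the member with the largest change, had no peak in either list, so neither change of mRNA had an acRIP value beside it.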

How the data were processed

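RNA-seq of 3 shCtrl and 3 shNAT10 PANC-1 libraries and acRIP-seq of 3 IP and 3 input libraries per group were available. The authors deposited 1 table of FPKM values with a column for each library, and HISAT2 2, HTSeq 0.11.0, DESeq2 1.22.2 and the GRCh38 build are named in the processing notes of the submitters, without their roles. The values equal reads scaled by the longest transcript of GENCODE release 29, at which 96.9% of values above 0 came out whole within 0.01 reads. The authors also deposited 1 peak list per group with the fold enrichment as a ratio, the p-value and a score of each peak as the peak caller gave them. How the replicates entered the peak calling and the strand setting of the counting are not given in the sources used here.

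Linear models were fitted with limma 3.58.1 (R 4.3.3, trend in the variance) to log2(FPKM + 0.1) of the 12982 genes that reached an FPKM of 1 in 3 or more libraries. P-values were adjusted by Benjamini-Hochberg over all of these genes. Peaks were matched by gene identifier, and peaks sharing at least 1 base on a strand were counted as shared. Python 3.11.15, pandas 2.3.3, NumPy 2.4.6 and matplotlib 3.10.9 were used, and the steps were tested on simulated data. No library pair agreed within sampling noise.

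The members, the gene lists and the tests were chosen with earlier results of these data known. Named genes were all members, NAT10, the coding neighbours of CAPN2 and CAPN8, up to 3 rises and 3 falls of each list, other calpains with a mean of at least 0.1 FPKM and the 3 profiles nearest to CAPN8. Marker genes, ACTN4, TLN1, MUC1 and AGR2 were named after their values were seen.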

Additional observations from a re-analysis of the deposited data

How the results depend on the processing

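The alternatives were a pseudocount of 1, a minimum FPKM of 5, no filter, quantile normalization, median centring, TPM, no mean-variance trend, voom on the recovered reads, the replicate number as a block, and each library left out. Of 632 values under an alternative 573 kept their direction and side of the threshold or stayed near their value. The calls of NAT10 and CAPN5 held throughout.

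Log2 fold changes near 0 changed sign. CAPN1 went to 0.04 with TPM, CAPN2 to 0.05 with TPM, CAPN10 to 0.11 with TPM and 0.0057 with voom, and CAST to -0.0018 with median centring. With each library left out CAPN1 lay between -0.13 and 0.03, CAPN10 between -0.09 and 0.07, CAST between -0.05 and 0.04, and TP53BP2 between -0.02 and 0.16. CAPN15 passed the threshold with quantile normalization (0.20) and TPM (0.30) and lay between 0.17 and 0.21 with a library left out. CAPNS1 passed with quantile normalization (-0.15) and lay between -0.36 and -0.16 with a library left out. CAPN8 went to 1.25 with a pseudocount of 1, 2.97 with quantile normalization, 2.74 with TPM and 2.76 with voom, and a minimum FPKM of 5 removed it.

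Without a library, genes called higher numbered 1774 to 3303 and genes called lower 1765 to 3318, the lowest being without shNAT10 library 2 and without shNAT10 library 3. The calpain genes outside the members that were called lower numbered 1 with a minimum FPKM of 5, 1 with TPM and 1 to 2 with a library left out. In the gastric list 1 gene was called higher with TPM, 0 lower with a minimum FPKM of 5, and 1 to 2 lower with a library left out. Of the member peaks 1 was shared at an overlap of 50%, 1 among the 50% with the highest fold enrichment and 0 among the 50% with the lowest p-values. Members with a shNAT10 peak numbered 3 and 1 in the last of these 2 settings. The cause of these changes was not tested.

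The deviations of same-numbered libraries correlated at -0.043, 0.064 and 0.107, and those of differently numbered libraries at -0.122 to 0.063. With 3 libraries per group these values cannot show whether the replicate numbers pair the libraries. With the replicate block 2524 genes were called higher and 2603 lower, and among the genes named SOX9 lost its call (limma adjusted p = 0.0933). The reads behind CAPN8 in shCtrl cells, 16 to 17 per library, limit the precision of its fold.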

Other observations

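CAPN3, the calpain of skeletal muscle, had 1 or 2 reads per library in RNA-seq but 2 peaks in the shNAT10 acRIP list and none in the shCtrl list. Their fold enrichments of 895 and 1690 stood at the 89.7% and 95.2% positions of the list, above every peak of the members. They lay on chromosome 15 between 42408566 and 42408745, outside the exons of the longest coding transcript, and between 42411780 and 42412049, in its 3′ UTR. Of the exon bases of CAPN3 57.1% are shared on the same strand with AC012651.1. Whether the peaks lie in these shared bases, and which gene gave the fragments, was not tested. With 1 list per group the difference between the groups was not tested.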
